A study of Homo sapiens with 10 samples.

Results

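The zinc finger (ZNF) genes of the short arm of human chromosome 19 are described here in a lymphoma cell line edited at DDX3X, the X-linked gene of an RNA helicase. The members are all rows of the gene count table that are protein-coding, carry a GENCODE release 29 name of ZNF followed by digits only, and start below position 26000000 of chromosome 19. This rule used no measured value and gave 83 of 58721 rows. By the same naming rule 157 ZNF genes lie on the long arm and 235 on other chromosomes.

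The line is labelled U2392, and poly(A) RNA was sequenced from 6 samples labelled wild-type (wt) and 4 labelled R475C. Cells of both groups had received, by electroporation, a plasmid with Cas9, GFP and a guide RNA to DDX3X, together with a double-strand DNA template. The R475C template carried that arginine-to-cysteine change and the wild-type template the unchanged codon, while both templates also carried silent changes that remove the PAM and add a SpeI cutting site. GFP-positive cells were sorted, grown from single cells, screened by SpeI digestion and Sanger-sequenced, so that both groups are edited clones of 1 line. The labels do not say which samples came from which clone, and p-values therefore rest on the spread among these libraries alone, part of which may be technical. Counts per gene carry no allele, and the edited base was not checked here.

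Library totals ran from 8928539 counts (R475C 4) to 53779005 (R475C 2), so that 3 counts, taken as the limit that a count of 0 allows, equal 0.0567 to 0.331 counts per 1000000 library counts (CPM). All 6 B cell markers reached 1 CPM in at least 1 sample, with summed levels of 3223 to 4123 CPM in wild-type and 3397 to 4203 CPM in R475C. The T cell genes CD3D, CD3E and CD3G, the monocyte genes CD14, CSF1R and LYZ, and KRT8, KRT18 and KRT19 of epithelia were under 1 CPM in every sample. Of the T cell list, however, CD2 reached 1 CPM in at least 1 sample and CD247 stood at 3.78 to 9.65 CPM. CD68 of the monocyte list was at 3.58 to 5.42 CPM and EPCAM at 16.4 to 37.2 CPM. Of the NK cell list KLRD1 and NKG7 were under 1 CPM and NCAM1 was at 0.514 to 10.3 CPM. Fibroblast markers summed to 0.599 to 20.1 CPM in wild-type and 0.155 to 6.52 CPM in R475C, and the part of these genes in the results was not tested. Over all tested genes other than the members, wt 1, wt 4, R475C 1 and R475C 3 formed one branch of a hierarchical clustering and the other 6 samples the second branch. These 2 sets cross the genotypes, were found in these data and are not groups of the study. Effects within the sets are given only for ZNF486, ZNF93, ZNF43, ZNF253, ZNF555 and ZNF257. Other members also moved with the sets, among them ZNF714. It stood at 30.2, 25.2, 24.1 and 26.3 CPM in wt 1, wt 4, R475C 1 and R475C 3, and at 8.42 to 15.5 CPM in the others.

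Most ZNF proteins of this family carry an array of C2H2 zinc fingers, which read DNA sequence, behind a KRAB domain. The KRAB domain recruits the corepressor TRIM28 (KAP1), which brings the histone methyltransferase SETDB1 and heterochromatin proteins to the bound DNA. The genes arose by repeated tandem duplication and stand in clusters of similar copies, many of them on chromosome 19. Many of the proteins bind retrotransposons, among them ZNF91, a repressor of SVA elements, and ZNF93, a repressor of LINE-1 elements.

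Promoters are shown because those of neighbouring copies resemble each other. The 250 bases upstream of the RefSeq start are shown for ZNF486 and ZNF93, which rose in R475C, for ZNF43, which rose less, for ZNF254 and ZNF257, which were on in some samples and off in others, and for ZNF90, a neighbour of ZNF486 that was off in all samples and was chosen after its values were seen. The sequences are RefSeq's (GRCh38.p14), and capitals mark TCCAATCA, which holds the letters of a CCAAT box, the site class read by the factor NF-Y.
ZNF486: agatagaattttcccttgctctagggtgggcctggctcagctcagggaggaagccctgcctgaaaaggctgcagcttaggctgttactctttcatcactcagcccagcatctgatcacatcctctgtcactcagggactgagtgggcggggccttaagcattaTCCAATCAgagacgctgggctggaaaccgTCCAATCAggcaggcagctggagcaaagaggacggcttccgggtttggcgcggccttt
ZNF93: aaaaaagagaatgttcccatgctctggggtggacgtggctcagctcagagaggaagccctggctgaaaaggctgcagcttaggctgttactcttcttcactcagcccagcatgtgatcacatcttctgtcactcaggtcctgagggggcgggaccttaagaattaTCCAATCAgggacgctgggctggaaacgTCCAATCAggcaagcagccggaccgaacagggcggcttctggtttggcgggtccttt
ZNF43: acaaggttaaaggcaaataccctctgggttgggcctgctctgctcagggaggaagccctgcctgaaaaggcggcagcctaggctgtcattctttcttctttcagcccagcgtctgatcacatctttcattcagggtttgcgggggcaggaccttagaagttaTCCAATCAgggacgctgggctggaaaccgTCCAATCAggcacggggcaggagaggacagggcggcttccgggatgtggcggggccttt
ZNF254: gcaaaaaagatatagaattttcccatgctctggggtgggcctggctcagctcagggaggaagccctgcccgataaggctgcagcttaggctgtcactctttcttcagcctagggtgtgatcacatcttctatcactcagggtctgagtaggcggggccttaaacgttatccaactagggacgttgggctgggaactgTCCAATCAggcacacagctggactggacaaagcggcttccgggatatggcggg
ZNF257: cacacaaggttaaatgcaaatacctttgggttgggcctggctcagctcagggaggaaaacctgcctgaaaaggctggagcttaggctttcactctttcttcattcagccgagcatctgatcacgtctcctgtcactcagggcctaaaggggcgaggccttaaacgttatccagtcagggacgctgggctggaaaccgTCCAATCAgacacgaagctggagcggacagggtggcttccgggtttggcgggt
ZNF90: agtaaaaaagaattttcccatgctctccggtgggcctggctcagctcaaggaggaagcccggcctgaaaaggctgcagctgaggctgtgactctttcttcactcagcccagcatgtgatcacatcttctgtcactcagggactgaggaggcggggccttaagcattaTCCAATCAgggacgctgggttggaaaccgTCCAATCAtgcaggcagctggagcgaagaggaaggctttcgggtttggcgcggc
The windows are chr19:20166964-20167213 (plus strand) for ZNF486, chr19:19900696-19900945 (plus) for ZNF93, chr19:21836183-21836432 (minus) for ZNF43, chr19:24086937-24087186 (plus) for ZNF254, chr19:22052234-22052483 (plus) for ZNF257 and chr19:20077750-20077999 (plus) for ZNF90. Of these 6 genes, GENCODE starts only ZNF486 after the RefSeq start. The RefSeq starts of the other 5 lie inside the gene as GENCODE draws it, those of ZNF43 and ZNF254 far inside. ZNF486 and ZNF93 were identical at 87.0% of aligned bases, and ZNF486 and ZNF90 at 89.4%. All 3 hold 2 copies of the 8 capital letters.

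TCCAATCA, read on both strands (reverse complement TGATTGGA), was taken as the most frequent 8-base word of these promoters, so its frequency in them is a description. RefSeq had a promoter for 73 of the 83 members. The word stood in at least 1 promoter of 52 of those 73 genes (71.2%). Over all 35116 promoters of the same length, counted singly and not per gene, the share was 1.45%. Counted per gene, the word stood in 1 of 136 ZNF genes on the long arm of chromosome 19 and in 19 of 192 on other chromosomes. It stood in 4 of 410 non-ZNF genes of the short arm. Within the short arm it stood in 29 of 29 genes of the cluster that holds ZNF486, 19 of 24 of the cluster from ZNF653 to ZNF791, and 0 of 12 of the cluster from ZNF414 to ZNF846. In the ZNF486 cluster the word was in 13 of 13 promoters of genes on in every sample and in 8 of 8 promoters of genes off in every sample. With 1 promoter for each of the 29 genes of that cluster (RefSeq gives 30 promoters), the sequences were identical at a median of 76.2% of aligned bases over 406 pairs, with a range of 46.9% to 92.0%.

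The 83 genes fell into 6 clusters when a gap of more than 500 kb was taken to separate clusters (GENCODE release 29 on GRCh38). From the telomere inward these ran from ZNF554 to ZNF77 (5 genes), ZNF557 to ZNF358 (2), ZNF414 to ZNF846 (13), ZNF653 to ZNF791 (25), ZNF333 alone, and ZNF101 to ZNF254 (37). The last cluster spans 4461 kb next to the centromere, at chr19:19668796-24129961, and holds ZNF486, ZNF93, ZNF43, ZNF91, ZNF253, ZNF254 and ZNF257.

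A gene was called on in a sample at 1 CPM or more and off under 0.5 CPM. By this measure 45 members (54.2%) were on in all 10 samples, 21 (25.3%) were off in all, 12 (14.5%) were on in some samples and off in others. The remaining 5 were between the limits in at least 1 sample: ZNF253 and ZNF626 were on in the 9 other samples each, ZNF77 and ZNF682 were off in the 9 others, and ZNF66 was off in 8. Of all protein-coding genes 5.67% were on in some samples and off in others, as were 10.2% of the ZNF genes of the long arm and 5.53% of those on other chromosomes. The clusters differed in makeup. In the ZNF414 to ZNF846 cluster 11 of 13 genes were on throughout and none changed state, whereas the ZNF653 to ZNF791 cluster held 15 genes on, 4 off and 6 changing state, and the ZNF101 to ZNF254 cluster held 15 on, 13 off and 5 changing state. Of the off genes of the last cluster, 8 that follow each other, ZNF676, ZNF729, ZNF98, ZNF492, ZNF99, ZNF723, ZNF728 and ZNF730, lie between ZNF257 and ZNF724. These are bulk libraries, in which fewer expressing cells and less RNA per cell cannot be told apart.

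**Figure D1:**
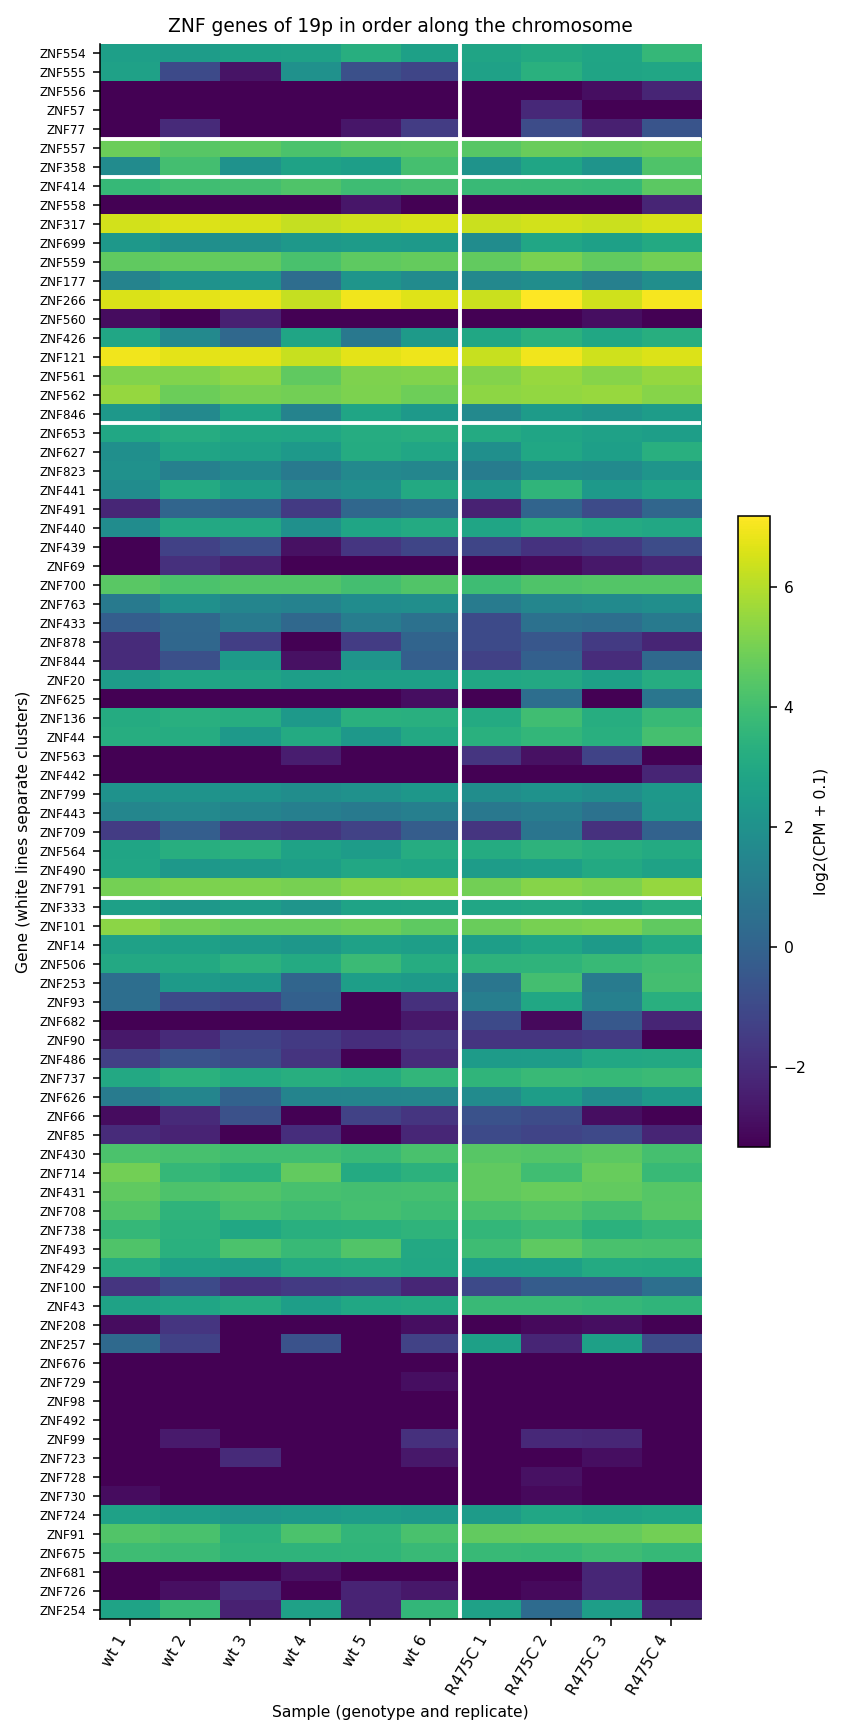
Level of each of the 83 ZNF genes (rows, in order along the short arm from the telomere) in each of the 10 samples (columns), as log2(CPM + 0.1); white horizontal lines separate the 6 clusters and the white vertical line separates wild-type from R475C. The ZNF414 to ZNF846 cluster holds the brightest rows, and dark rows run together between ZNF257 and ZNF724 in the last cluster.

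Per kilobase of exon, the highest mean levels were in ZNF266 (19.5 CPM per kb), ZNF317 (17.2) and ZNF121 (14.2), followed by ZNF561 (5.86) and ZNF700 (5.76). The first 4 of these are in the ZNF414 to ZNF846 cluster. ZNF317 was steady, at 76.7, 90.3 and 97.0 CPM (lowest, median and highest wild-type sample) and at 81.4, 87.1, 79.2 and 92.8 CPM in R475C 1 to 4. ZNF266 ran from 75.2 to 122 CPM in wild-type and from 80.0 to 144 CPM in R475C, and the groups overlapped. For these 5 genes the log2 fold change of R475C over wild-type lay between -0.15 (ZNF121) and 0.26 (ZNF561), and none passed the test.

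The first comparison asked which ZNF genes of the short arm differed between R475C and wild-type clones. ZNF486 and ZNF93, which lie in the same cluster, rose from at most 0.523 and 1.28 CPM in any wild-type sample to at least 5.37 and 2.17 CPM in every R475C sample, and ZNF43 rose 1.79-fold from a level above 5 CPM. No tested member was called lower. The test was edgeR's quasi-likelihood test on all 17045 genes with enough counts, with Benjamini-Hochberg adjustment over all of them, and a gene was called at an adjusted p under 0.05. The filter on low counts left 58 of the 83 members for the test, and 3 were called higher and 0 lower, or 5.17% higher where 1.31% of all tested genes were called higher and 1.15% lower. ZNF486, ZNF93 and ZNF100 passed that filter only through R475C samples, and ZNF491, ZNF844 and ZNF254 only through wild-type samples.

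ZNF486 (ENSG00000256229.7, chr19:20167228-20200490) is a KRAB zinc finger gene with no tested row overlapping it. It stood at 0, 0.245 and 0.523 CPM in wild-type (lowest, median and highest of 6) and at 5.37, 5.42, 7.76 and 8.06 CPM in R475C 1 to 4. The counts behind these levels were 0 to 15 in wild-type libraries and 73 to 287 in R475C libraries, and the groups did not overlap. The mean rose from 0.264 ± 0.190 (SD, n = 6) to 6.65 ± 1.46 CPM (SD, n = 4), a log2 fold change of 4.61 (SE 0.50, edgeR adjusted p = 0.00146). Within the set of wt 1, wt 4, R475C 1 and R475C 3 the log2 fold change was 4.70 (SE 0.45, edgeR adjusted p = 0.000370), and among the other 6 samples 4.56 (SE 0.67, edgeR adjusted p = 0.0114).

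ZNF93 (ENSG00000184635.15, chr19:19900913-19963464) stood at 0, 0.373 and 1.28 CPM in wild-type (lowest, median and highest) and at 2.17, 7.49, 2.26 and 9.72 CPM in R475C 1 to 4. The groups did not overlap, but R475C 2 and R475C 4 were more than 3 times as high as R475C 1 and R475C 3, and wt 1 (1.28 CPM) and wt 4 (0.839 CPM) were the highest of the wild-type samples. The log2 fold change was 3.35 (SE 0.72, edgeR adjusted p = 0.0357). It was 1.06 (SE 0.46, edgeR adjusted p = 0.42) within the set of wt 1, wt 4, R475C 1 and R475C 3, and 5.13 (SE 0.58, edgeR adjusted p = 0.00356) among the other 6 samples. The difference between these 2 effects was 4.08 (SE 0.81), with an edgeR adjusted p of 0.0641 that missed the threshold. The call also held in only 2 of the 10 fits that left out 1 sample, in which the log2 fold change ranged from 2.93 to 3.88.

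ZNF43 (ENSG00000198521.11, chr19:21804949-21852125), a gene first isolated from lymphoid cells, stood at 5.71, 7.22 and 8.69 CPM in wild-type (lowest, median and highest) and at 13.6, 13.8, 12.7 and 11.6 CPM in R475C 1 to 4. Every R475C sample was above every wild-type sample. The log2 fold change was 0.84 (SE 0.14, edgeR adjusted p = 0.0128), and the call held in all 10 fits that left out 1 sample. It was 1.11 (SE 0.24, edgeR adjusted p = 0.0477) within wt 1, wt 4, R475C 1 and R475C 3, and 0.71 (SE 0.18, edgeR adjusted p = 0.0807, not called) among the other 6 samples. ZNF91 (ENSG00000167232.13, chr19:23304991-23395560), the SVA repressor, stood at 10.6, 17.9 and 19.9 CPM in wild-type and at 25.2, 25.5, 25.8 and 30.5 CPM in R475C 1 to 4. These groups did not overlap either, but with a log2 fold change of 0.73 (SE 0.18) the edgeR adjusted p of 0.0533 missed the threshold. Of the 10 fits that left out 1 sample, only 1 called ZNF91, the fit without wt 1 (edgeR adjusted p = 0.0343).

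**Figure D2:**
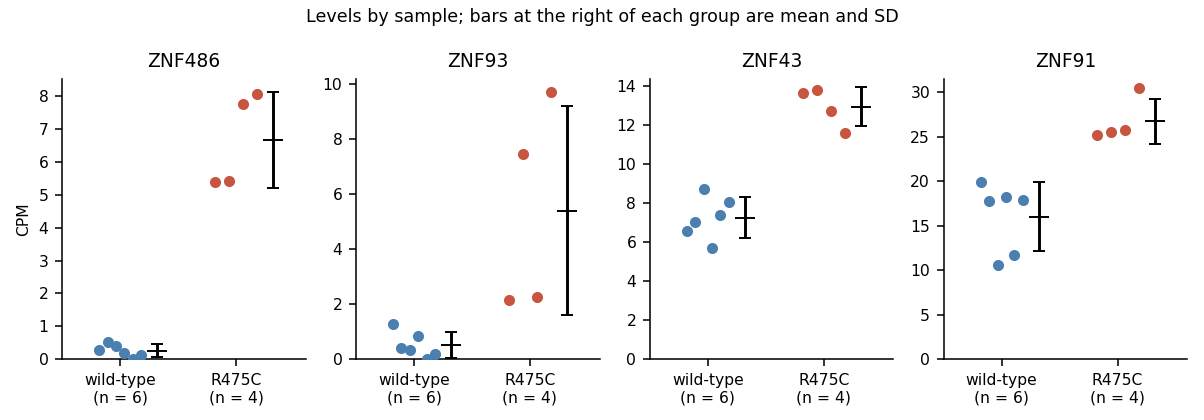
CPM of ZNF486, ZNF93, ZNF43 and ZNF91 in each sample (points; 6 wild-type in blue, 4 R475C in red), with the mean and SD of each group as bars beside the points. In each of the 4 panels all R475C points lie above all wild-type points, and in ZNF93 the R475C points split into a pair near 2 CPM and a pair at 7.49 and 9.72 CPM.

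Among the 58 tested members 15 had an unadjusted p under 0.05 with a higher level in R475C and 0 with a lower one, against 8.45% and 8.86% of all tested genes. Among the 58, 8 (ZNF555, ZNF426, ZNF44, ZNF93, ZNF486, ZNF626, ZNF43 and ZNF91) had every R475C sample above every wild-type sample (13.8%, against 3.19% of all tested genes), and 0 had the reverse order (against 2.93%). ZNF486, ZNF93 and ZNF100, which passed the low-count filter only through R475C samples, are part of the 15, and ZNF486 and ZNF93 also of the 8. ZNF491, ZNF844 and ZNF254, which passed it only through wild-type samples, are in neither group. The log2 fold change was above 0 in 41 of 58 (70.7%, against 50.3% of all tested genes), with a median of 0.28 against 0.00. ZNF genes elsewhere were also above 0 more often than not, at 68.1% of 135 tested on the long arm and 64.5% of 197 on other chromosomes, but with medians of 0.08 and 0.10. The non-ZNF protein-coding genes of the short arm were at 37.4% of 396, with a median of -0.09. These shares are descriptions and were not compared by a test.

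The ZNF101 to ZNF254 cluster held all 3 calls and 10 of the 15 members higher at an unadjusted p under 0.05. In it 20 of 22 tested genes had a log2 fold change above 0, with a median of 0.34, and the 2 others were ZNF429 and ZNF254. In the other clusters together this held for 21 of 36 tested genes, with a median of 0.09. Among genes with a mean of at least 5 CPM the counts were 15 of 17 in the ZNF101 to ZNF254 cluster (median 0.32) and 18 of 24 in the others (median 0.26). ZNF486, ZNF93 and ZNF100 lie in the ZNF101 to ZNF254 cluster and passed the low-count filter only through R475C samples. They are part of the 10 and of the 20, and ZNF486 and ZNF93 also of the 3 calls. None of them had a mean of 5 CPM or more. ZNF254 in the same cluster, and ZNF491 and ZNF844 in others, passed the filter only through wild-type samples. Their log2 fold changes were below 0. The summed level of the ZNF101 to ZNF254 cluster was 187 to 257 CPM in wild-type and 261 to 289.8 CPM in R475C, and these ranges did not overlap. The closest samples were wt 1 (257.1 CPM) and R475C 1 (261.2 CPM). In these, ZNF486 gave 0.291 and 5.37 CPM and ZNF93 gave 1.28 and 2.17 CPM. Without ZNF486 and ZNF93 the ranges overlap. Summed over all members, the level was 694 to 869 CPM in wild-type and 802 to 1034 CPM in R475C, with overlap.

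The neighbours of ZNF486 and ZNF93 were then examined for differences over the same stretch of the chromosome. The 2 genes lie 203.8 kb apart on the same strand, with the ZNF genes ZNF682 and ZNF90 between them. ZNF682 was at 0 in 5 wild-type samples and at 0.0589 CPM in wt 6, and at 0.413, 0.0189, 0.634 and 0.110 CPM in R475C 1 to 4. ZNF90, whose promoter is shown above, ran from 0.0582 to 0.327 CPM in wild-type and from 0 to 0.242 CPM in R475C. Neither had enough counts for the test.

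Within 500 kb of ZNF486 lay 55 rows, of which 26 were at 0 in all samples and 11 were tested. ZNF93 was the only one called (2.46% of all tested genes were called in either direction). The log2 fold changes of the other 10 were 1.24 for ZNF253, 0.94 for ZNF626, 0.48 for ZNF737, 0.47 for AC078899.1, 0.42 for AC011477.2, 0.38 for ZNF506, 0.20 for AC011477.1, 0.18 for ZNF14, 0.00 for ZNF101 and -0.27 for LINC00663. ZNF737, the nearest tested ZNF gene on the centromere side at 335.3 kb, stood at 7.86, 9.02 and 11.9 CPM in wild-type and at 11.6, 13.9, 12.8 and 14.1 CPM in R475C 1 to 4. Its groups overlapped by 1 sample (R475C 1 under wt 6), with an edgeR adjusted p of 0.107.

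Within 500 kb of ZNF93 lay 62 rows, of which 18 were tested, and ZNF486 was the only one called. On the telomere side, beyond ZNF101, lay 9 tested protein-coding genes outside the ZNF family. GATAD2A, a subunit of the NuRD deacetylase complex, had a log2 fold change of 0.33 (SE 0.08) and an edgeR adjusted p of 0.0506. The other 8 were at 0.64 for CILP2, 0.48 for YJEFN3, 0.24 for TSSK6, 0.12 for GMIP, -0.04 for ATP13A1, -0.16 for LPAR2, -0.18 for AC011448.1 and -0.22 for NDUFA13, and none was called.

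ZNF253, 6.24 kb upstream of ZNF93 on the same strand, was the neighbour that varied most. It belongs with ZNF254 and ZNF257 to genes first named as bone marrow zinc fingers. Its level was 1.28, 5.19, 4.53, 0.958, 5.85 and 5.18 CPM in wt 1 to 6 and 1.65, 16.3, 1.96 and 16.3 CPM in R475C 1 to 4. The genotypes overlapped and the gene was not called (log2 fold change 1.24, SE 0.70, edgeR adjusted p = 0.399). Yet wt 1, wt 4, R475C 1 and R475C 3 all lay under 2 CPM, and among the other 6 samples both R475C samples were above all 4 wild-type samples, with a log2 fold change of 1.65 (SE 0.18, edgeR adjusted p = 0.00279). Within wt 1, wt 4, R475C 1 and R475C 3 it was 0.70 (SE 0.47, edgeR adjusted p = 0.704), and the difference between the 2 effects, 0.97 (SE 0.35, edgeR adjusted p = 0.609), was not called. ZNF93, next to it, was also highest in R475C 2 and R475C 4, but its highest wild-type levels were in wt 1 and wt 4, where ZNF253 was lowest.

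Several other members changed state between samples of 1 genotype. ZNF254 (chr19:24033405-24129961), at the centromere end of the last cluster, stood at 6.75, 13.2, 0.0934, 6.39, 0.107 and 12.3 CPM in wt 1 to 6 and at 6.35, 1.17, 5.74 and 0.110 CPM in R475C 1 to 4. It was off in wt 3, wt 5 and R475C 4, at 1 or 2 counts in each, and the genotypes overlapped (log2 fold change -0.93, SE 1.09, edgeR adjusted p = 0.725). ZNF257 (chr19:22052452-22091480) was at 6.09 and 6.07 CPM in R475C 1 and R475C 3, at 0.113 and 0.442 CPM in R475C 2 and R475C 4, and at 0, 0.319 and 1.11 CPM in wild-type (lowest, median and highest, the last in wt 1). Its log2 fold change of 3.01 (SE 1.05) had an edgeR adjusted p of 0.157. Within wt 1, wt 4, R475C 1 and R475C 3 alone it was 2.88 (SE 0.42, edgeR adjusted p = 0.00518). That set was found in these data and leaves out R475C 2 and R475C 4, where ZNF257 was off, so this call is not an independent result. Among the other 6 samples ZNF257 had too few counts for the test.

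ZNF555 (chr19:2841435-2860484), in the first cluster, was at 6.34 CPM in wt 1 and 3.83 CPM in wt 4 but at 0.0467 to 0.483 CPM in the other 4 wild-type samples. In R475C 1 to 4 it stood at 6.35, 9.89, 6.91 and 7.40 CPM, so the gene was on in every R475C sample and in 2 of 6 wild-type samples. Over all samples the log2 fold change was 1.98 (SE 0.87, edgeR adjusted p = 0.264). It was 0.39 (SE 0.31, edgeR adjusted p = 0.79) within wt 1, wt 4, R475C 1 and R475C 3 and 4.71 (SE 0.49, edgeR adjusted p = 0.00253) among the others. The difference between the 2 effects was 4.33 (SE 0.63, edgeR adjusted p = 0.00849), and ZNF555 was the only 1 of the 58 tested members called for this difference, which was called in 0.387% of all tested genes.

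ZNF844 (chr19:12064699-12081565), in the ZNF653 to ZNF791 cluster, stood at 5.23 CPM in wt 3 and 4.34 CPM in wt 5 and at 0.0399 to 0.795 CPM in the other wild-type samples. R475C 1 to 4 held 0.310, 0.832, 0.151 and 1.1 CPM, so the 2 high samples were those in which ZNF254 was off among wild-type samples. ZNF625 (chr19:12142090-12156729), in the same cluster, was at 1.27 CPM (67 counts) in R475C 2 and 1.66 CPM (15 counts) in R475C 4, with 0 counts in R475C 1, R475C 3 and 5 wild-type samples and 1 count in wt 6. ZNF625 had too few counts for the test over all samples. It is overlapped on the same strand by the read-through gene ZNF625-ZNF20, which held a mean of 6.54 CPM.

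ZNF100, ZNF878, ZNF491, ZNF433 and ZNF709 changed state at levels close to the limits. ZNF100 was at 0.118 to 0.418 CPM in wild-type and at 0.413, 0.718, 0.725 and 1.33 CPM in R475C 1 to 4, with overlap between R475C 1 and wt 2 only (log2 fold change 1.67, SE 0.45, edgeR adjusted p = 0.0741). The highest level of ZNF878 was 1.05 CPM in wt 2 and that of ZNF491 was 1.24 CPM in wt 6. ZNF433 was on in all samples but wt 1 (0.786 CPM) and R475C 1 (0.413 CPM), and ZNF709 was on in R475C 2 (1.61 CPM) only.

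Counting for each pair of samples the members that were on in one and off in the other gave a profile of each library. The pairs wt 1 and wt 4, wt 2 and wt 6, and wt 3 and wt 5 each differed in 0 of 83 members. R475C 1 and R475C 3 differed in 1 (ZNF433), as did R475C 2 and R475C 4 (ZNF254). Across genotypes wt 1 differed from R475C 1, wt 1 from R475C 3, and wt 4 from R475C 3 in 1 member each, which was ZNF486. The largest count was 8, between wt 5 and R475C 1. The number of members on was 48 to 51 in wild-type samples and 52 to 54 in R475C samples. ZNF486, on in R475C samples only, and ZNF93, on in every R475C sample and in wt 1, are part of these numbers. Without ZNF486 and ZNF93 the ranges meet. The number of genes on per sample was not counted over all genes. All pairs of libraries of 1 group differed by more than counting noise over all genes, and none was merged with another, but this does not show that they came from separate clones. The labels do not give the clone of each sample, and if some of the 6 and 4 samples share a clone, the p-values are too small. A fit that left out 1 sample would then keep the other samples of its clone, so these fits do not test the loss of a clone.

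DESeq2, limma-voom and the edgeR fits that used the 2 sample sets called 3 to 8 members higher and none lower. Fits that left out 1 sample called 2 to 5 higher, and the fit with the replicate number as a block called 0 (0% of all genes). DESeq2 called 8 of 63 higher (ZNF44, ZNF93, ZNF486, ZNF737, ZNF626, ZNF100, ZNF43 and ZNF91, where 2.47% of all genes were called higher and 3.09% lower), and limma-voom called 3 (ZNF555, ZNF486 and ZNF43, against 1.36% higher and 1.12% lower). edgeR with the 2 sample sets as a covariate called 8 (ZNF555, ZNF253, ZNF93, ZNF486, ZNF737, ZNF100, ZNF43 and ZNF91, against 3.31% higher and 3.3% lower). Within wt 1, wt 4, R475C 1 and R475C 3 alone it called ZNF486, ZNF43 and ZNF257 (against 0.646% higher and 1.15% lower), and within the other 6 samples ZNF555, ZNF625, ZNF253, ZNF93 and ZNF486 (against 1.34% higher and 1.29% lower). The sets were found in these data, so calls within them are not independent results. ZNF625, with at most 1 count in any wild-type sample, passed the filter there only through R475C 2 and R475C 4.

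The partners of KRAB zinc finger proteins were compared in the same fit. A list of 39 corepressor and heterochromatin genes was tested whole, and 0 were called higher and 1 (2.56%) lower, against 1.31% and 1.15% of all tested genes, with a median log2 fold change of 0.04. The 1 call was HDAC2, a histone deacetylase, which was between 85.0 and 100.4 CPM in the 6 wild-type samples and at 72.7, 70.8, 73.7 and 52.5 CPM in R475C 1 to 4. Its groups did not overlap, and its log2 fold change was -0.48 (SE 0.11, edgeR adjusted p = 0.0409). The call was lost in 8 of the 10 fits that left out 1 sample. Of the 39 genes 38 were on in all samples, and 1, ATF7IP2, changed state (2.56%, against 5.67% of all protein-coding genes). ATF7IP2 stood at 17.3, 0.0349, 0, 17.2, 0 and 0.0589 CPM in wt 1 to 6. In R475C 1 to 4 it stood at 14.2, 8.49, 14.6 and 6.07 CPM (log2 fold change 0.91, SE 1.36, edgeR adjusted p = 0.797). Like ZNF555, it was on in wt 1, wt 4 and every R475C sample. TRIM28 was at 1101 ± 139 CPM (SD, n = 6) in wild-type and 913 ± 98.3 CPM (SD, n = 4) in R475C (log2 fold change -0.27, SE 0.11, edgeR adjusted p = 0.219). SETDB1 was at 56.9 ± 3.58 and 58.7 ± 2.71 CPM (0.04, SE 0.08, edgeR adjusted p = 0.832), and ZNF274, a zinc finger protein that binds the 3' ends of ZNF genes, at 50.2 ± 4.72 and 58.8 ± 5.57 CPM (0.23, SE 0.10, edgeR adjusted p = 0.247).

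Because the members are copies of each other, reads could be counted for the wrong copy. The share of a gene's 50-base stretches of transcript sequence that also occur in another, non-overlapping gene was 5.41% for ZNF486, 2.65% for ZNF93, 2.81% for ZNF43, 3.31% for ZNF91, 7.63% for ZNF253 and 3.44% for ZNF254. It was highest for ZNF98 (41.0%) and ZNF492 (33.7%), which share most of it with each other and were off in all samples, and for ZNF443 (32.6%) and ZNF799 (17.5%), which were on in all samples and whose separate levels are uncertain. Of the 83 members 26 overlap a tested row of another gene. Whether the counting used the strand of the reads is not stated in the labels, so reads of genes that overlap on opposite strands cannot be told apart.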

How the data were processed

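Poly(A) RNA of 6 wild-type and 4 R475C samples was analysed from the deposited table of raw counts per gene, in which per the submitters' processing notes the authors used cutadapt 1.10, STAR 2.6.0c and featureCounts. Genome build, annotation, strand and multimapping settings were not given in the sources used here. Each of the 58721 row IDs matched GENCODE release 29, which supplied names and GRCh38 coordinates. Groups were taken from the labels.

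CPM are counts per 1000000 library counts, scaled by TMM factors (edgeR 4.0.16, R 4.3.3). Genes were kept by filterByExpr (minimum count 10, minimum total 15; about 0.375 CPM in 4 samples), giving 17045 tested genes, and fitted by genotype alone with edgeR's quasi-likelihood test and Benjamini-Hochberg adjustment. Each count of 0 allows up to 3 counts, a limit that covers counting error only. On simulated data for this comparison with 17045 genes, the test found 24%, 52%, 78% and 86% of genes changed 1.5-, 2-, 4- and 8-fold, and 5 of its 125 calls were unchanged genes. The simulated libraries were drawn independently, without the 2 sample sets or shared clones, so these shares may not hold for the real libraries. Alternatives were other scalings, filters and tools (DESeq2 1.42.0, limma 3.58.1), the replicate number as a block, the 2 sample sets, and leaving out each sample. The corepressor list, neighbours, cluster counts and the interaction of genotype and sample set were added to these after seeing the data.

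Genes named with values are ZNF486, ZNF93, ZNF43, ZNF91, every called member, the 10 members of changing state with the highest ratio of highest to lowest CPM (0.1 CPM added), the 5 highest in CPM per kb, and tested rows within 500 kb of ZNF486 or ZNF93. TRIM28, SETDB1, ZNF274 and called genes are named from the corepressor list. ZNF433, ZNF709, ZNF682, ZNF90, ZNF714, ATF7IP2, and the genes given by name in counts only, were chosen for naming after a look at their values. The members and lists were chosen with earlier results of these data known. Promoters come from RefSeq, 250 bases upstream of each start. Identity was computed with Biopython 1.88.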

Additional observations from a re-analysis of the deposited data

Results flagged for a closer look

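Over the named members 34 groups of samples were checked for 1 sample standing apart from the rest of its group, and 3 showed one, where chance gives about 1 in 20. In ZNF625, wt 6 held the only count among the wild-type samples, so that its gap to the next sample was the group's whole range (ratio 1). In ZNF121, wt 4 (77.3 CPM) lay below the other wild-type samples by 0.684 of the group's range. In ZNF91, R475C 4 (30.5 CPM) lay above the other R475C samples by 0.895 of the range.

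The effect of the genotype on ZNF555 differed between the 2 sets of samples. The log2 fold change among wt 2, 3, 5 and 6 and R475C 2 and 4 exceeded that among wt 1 and 4 and R475C 1 and 3 by 4.33 (SE 0.63, edgeR adjusted p = 0.00849). The sets were found in these data, so this difference is not an independent result.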

How the results depend on the processing

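The count of 3 members called higher changed to 1 at an adjusted p under 0.01, 8 with the sample sets as a covariate, 5 in the set of 6 samples alone and 8 with DESeq2, and ranged from 2 to 5 when 1 sample was left out, with 5 without wt 1. No member was called lower under any alternative. With the replicate number as a block, for samples of shared number only, 0 of the tested members were called (0% of all genes), although 12 were higher at an unadjusted p under 0.05. The numbers did not pair the samples: deviations of same-numbered samples correlated at 0.337, 0.159, -0.269 and -0.212, and R475C samples 1 to 4 correlated best with wt 4, 3, 1 and 6. The count of 1 corepressor gene became 0 without the low-count filter, 0 with the replicate block, 2 with the covariate and 0 in the set of 4 samples, and ranged from 0 to 1 when 1 sample was left out. Called neighbours other than ZNF486 and ZNF93 went from 0 to 1 without the low-count filter, 3 with the covariate, 1 in the set of 6 samples and 3 with DESeq2, and stayed at 0 when 1 sample was left out. A gap of 250 kb gave 10 clusters. The median log2 fold change of tested members ranged from 0.17 to 0.30 when 1 sample was left out, the number of members on from 45 to 46, off from 21 to 22 and of changing state from 11 to 12. Genes above 0 in the ZNF101 to ZNF254 cluster ranged from 19 to 21 in those fits, and were 26 of 34 without a filter. Of the values of single named genes under the alternatives, 316 kept their side of the threshold, 16 lost it, 9 gained it and 0 changed direction with a call. The causes were not tested. In R475C 4, 1 count is 0.110 CPM, so states near 0.5 CPM rest on few counts there.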

Other observations

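The promoters of the clusters also differed in CG dinucleotides, counted in the 250 bases upstream of the RefSeq start. The median was 8 (range 3 to 14) over the 30 promoters of the ZNF101 to ZNF254 cluster, 12.5 (7 to 25) over the 26 promoters of the ZNF653 to ZNF791 cluster and 15 (3 to 26) over the 13 promoters of the ZNF414 to ZNF846 cluster. It was 18 over the promoters of ZNF genes on the long arm and 11 over all 35116 promoters. Within the ZNF101 to ZNF254 cluster the median was 9 for genes on in every sample and 9.5 for genes off in every sample. ZNF486 had 7 and ZNF93 had 8.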
